A study of Homo sapiens with 10 samples.

Results

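T47D breast cancer cells that carry progesterone receptor A (PR-A) and had been given the progestin R5020 were compared with PR-negative T47D-Y cells, and the question was whether ligand reverses, keeps or adds to the differences that the receptor lines already show without it. The comparison was the mean of 4 arrays, 2 of R5020-treated WT PR-A cells and 2 of R5020-treated PR-A K388R cells, minus the mean of 2 arrays of vehicle-treated T47D-Y cells. These are 6 of the 10 arrays of the series, and the other 4 arrays, of both PR-A lines with vehicle, are given beside them. Every probe set with 1 gene symbol entered, 12547 of 16376, and where genes are counted each of 8904 genes stands as its brightest probe set.

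T47D is a human luminal breast cancer line and T47D-Y is its subline without PR. Both receptor lines, WT PR-A and PR-A K388R, were made by stable transfection of T47D-Y with a vector for PR-A or for PR-A with lysine K388 replaced, the site to which the small protein SUMO is attached. All lines shared the same medium, and the treatment was ethanol (vehicle) or 10 nM R5020 for 24 h. The labels do not say how many clones a line stands for, T47D-Y cells with R5020 were not analysed here, and the receptor, the transfected line it sits in and any action of R5020 through another receptor cannot be told apart. NR3C1, the glucocorticoid receptor gene, read 3.65 and 3.81 on the T47D-Y arrays, on a log2 scale whose lower quartile was 3.28 to 3.40 per array, and the part of that receptor was not tested. No probe set for PGR was among those used, so the labels could not be checked on the receptor's own transcript. The replicates are numbered 1 and 2 without a statement that they are separate cultures, so p-values measure the spread between these samples, which may be technical.

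PR-A is the shorter of the main forms of the progesterone receptor, a transcription factor of the steroid receptor family. Bound to a progestin it attaches to DNA at progesterone response elements or joins other factors at their sites, and in breast cells it raises and lowers many genes and can hold back the estrogen receptor. Receptor without ligand also alters transcription. In the study, SUMO on the receptor held back activity on a synthetic promoter of progesterone response elements and not on the MMTV promoter. On the cells' own genes the study describes an effect that depends on the gene, without general repression.

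Markers of luminal epithelial cells were high on all 10 arrays. KRT18, a keratin of luminal cells, lay between 13.45 and 14.29 (log2) and EPCAM, an epithelial adhesion molecule, between 11.09 and 11.77. The leukocyte gene PTPRC stayed between 2.58 and 2.73 and the endothelial gene CDH5 between 2.96 and 3.21, under the lower quartile of the arrays. Of 16 leukocyte markers 1 was called in the comparison of the R5020-treated lines with T47D-Y, FCGR3B, which was 2.06 higher (3.93 in WT PR-A against 0.18 in PR-A K388R). Of 9 endothelial markers 1 was called, ENG, 0.85 lower. Over all genes 4.17% were called higher and 4.59% lower in that comparison. The part of other cells in these results was not tested. Array medians lay between 4.59 and 4.69, and Pearson's r over probe sets was 0.9961 to 0.997 within groups and 0.9765 to 0.9935 between them.

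With R5020 the PR-A lines differed from T47D-Y at about as many probe sets upwards as downwards. Of the 12547 probe sets, 514 (4.1%) were higher and 534 (4.26%) lower, called at a Benjamini-Hochberg adjusted p under 0.05 in limma and a fold of at least 1.5. Of these, 201 and 193 were at least 2-fold. Counted as genes, 371 of 8904 (4.17%) were higher and 409 (4.59%) lower with R5020, against 173 (1.94%) higher and 236 (2.65%) lower for the same lines with vehicle. The response to R5020 itself, averaged over both lines, was called higher at 238 genes (2.67%) and lower at 157 (1.76%). The comparisons share arrays: those with and without ligand share the T47D-Y arrays, and the response shares the R5020 arrays with the first and the vehicle arrays with the second. Noise in the T47D-Y arrays thus pushes both differences from T47D-Y the same way. Noise in the vehicle PR-A arrays pushes the difference with vehicle and the response to opposite signs.

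Each gene was then put in a class from its calls on the average of both lines, which either line alone may not share. Of the 409 genes that differed from T47D-Y with vehicle, 238 were kept, that is they differed the same way with R5020 and had no called response (85 higher, 153 lower). Taken by line, the difference with vehicle was called in both lines for 22 of these 85 and 69 of these 153. A further 32 were added to, with a called response in the same direction (13 higher, 19 lower). At 61 genes, counted as moved back, the called response ran against the difference with vehicle: 7 of them were reversed to a called difference of opposite sign, 42 were no longer called, and 12 came part of the way. For 78 genes the call faded without a called response (46 higher, 32 lower). For 223 genes the difference was called with R5020 and not with vehicle, and the response was called as well, of which 155 were higher and 68 lower. Their response was called in both lines for 53 of the 155 and 14 of the 68, and in PR-A K388R for 56 and 16. Another 268 genes passed against T47D-Y with R5020 alone with no called response (103 higher, 165 lower), and 79 responded without a called difference from T47D-Y. A class says which calls were made and not that a value stood still: of the 238 kept genes, 173 (72.7%) had a response whose 95% interval lay within 1.5-fold in either direction.

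**Figure D1:**
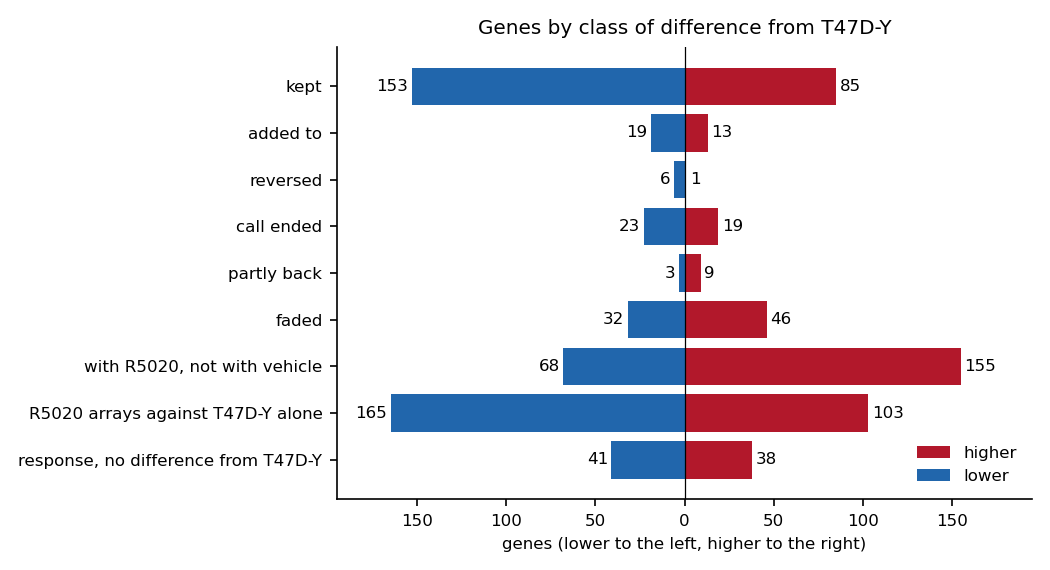
Number of genes in each class (horizontal axis, of 8904 genes, 1 probe set each), with higher genes as bars to the right and lower genes to the left. Direction is that of the difference from T47D-Y with vehicle for the first 6 classes, of the difference with R5020 for the next pair and of the response for the last; 153 lower genes were kept and 155 higher genes appeared with R5020.

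**Figure D2:**
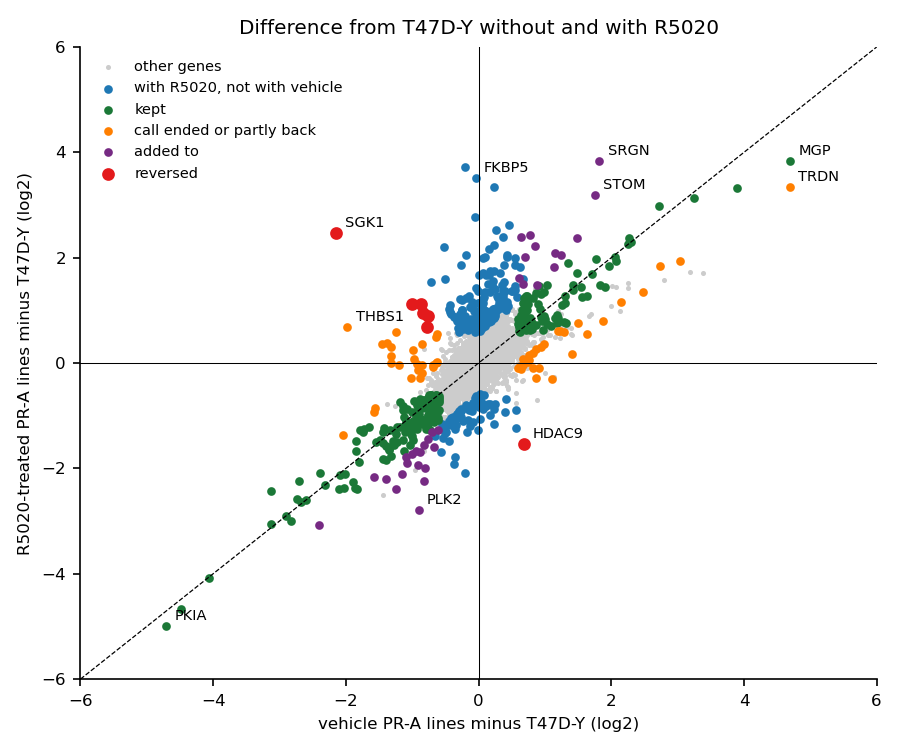
Each point is 1 of 8904 genes, with its log2 difference from T47D-Y in the vehicle-treated PR-A lines on the horizontal axis and in the R5020-treated lines on the vertical axis. Kept genes lie along the dashed line of equal differences, genes seen with R5020 along the vertical axis, and the 7 reversed genes in the upper left and lower right, with SGK1 farthest out.

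Of the genes called with R5020 and not with vehicle, the 155 higher ones had a median difference of 1.03 and the 68 lower ones of -0.98. HSD11B2, the enzyme that inactivates cortisol, read 5.11 and 5.33 in T47D-Y, 4.35 and 5.10 in WT PR-A and 5.33 and 5.29 in PR-A K388R with vehicle. With R5020 it read 8.91 and 9.07 in WT PR-A and 9.44 and 8.36 in PR-A K388R. All 4 R5020 arrays were above all others, and the difference from T47D-Y was 13.2-fold (log2 3.73, SE 0.28, limma adjusted p = 3.71e-05), against a log2 difference of -0.20 with vehicle. FKBP5, a co-chaperone of steroid receptors, stood at 6.30 and 6.19 in T47D-Y, 6.04 to 6.37 on the 4 vehicle arrays of the PR-A lines, and 9.87, 9.85, 9.66 and 9.62 on the R5020 arrays. Its difference of 11.4-fold (log2 3.51, SE 0.09, limma adjusted p = 8.08e-08) was near that of HSD11B2, with a smaller standard error.

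SLC26A3, an intestinal anion exchanger, was among the largest of this class and differed between the lines. It read 2.71 and 2.79 in T47D-Y and 2.94 to 3.03 with vehicle in the PR-A lines, all under the lower quartile, then 4.43 and 5.32 in WT PR-A and 7.85 and 6.75 in PR-A K388R with R5020. The difference from T47D-Y was 3.34 on the log2 scale (SE 0.29, limma adjusted p = 7.96e-05), and with values this dim in T47D-Y its size is uncertain. CPM, a membrane carboxypeptidase, likewise rose from values near or under the lower quartile (3.68 and 2.87 in T47D-Y) to 6.20 and 7.51 in WT PR-A and 5.07 and 5.40 in PR-A K388R, a difference of 2.77 (SE 0.35, adjusted p = 0.00062 in limma).

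Further genes of this class differed in how the lines compared. PDK4, which turns off pyruvate oxidation, was 2.52 higher, with 3.61 in WT PR-A against 1.44 in PR-A K388R. ALDH1A3, which makes retinoic acid, was 1.70 higher, with 8.57 and 8.43 in WT PR-A and 7.52 and 7.30 in PR-A K388R against 6.18 and 6.33 in T47D-Y. Its response in PR-A K388R (0.58) was not called. CEBPD, a transcription factor, was 1.68 higher, and NDRG1, a stress-induced gene, 1.54 higher, the first more in WT PR-A (2.69, with 0.67 in PR-A K388R) and the second more in PR-A K388R (2.32, with 0.75). KLF9, a zinc finger factor, was 2.17 higher, F3, which starts blood clotting, 2.00 higher and ABLIM3, an actin binder, 2.21 higher; these 3 were named after their values were seen, for being among the largest differences that both lines shared.

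On the lower side, PAPSS2, which makes the sulfate donor for steroid sulfation, read 10.70 and 10.37 in T47D-Y and 10.20 to 10.52 with vehicle in the PR-A lines, and 8.14, 8.32, 8.46 and 8.85 with R5020. Every R5020 array was below every other, at 4.26-fold under T47D-Y (log2 -2.09, SE 0.14, limma adjusted p = 2.29e-05). FOXA1, the pioneer factor of luminal cells, read 9.62 and 9.73 in T47D-Y and 9.36 to 9.86 with vehicle, and 8.38, 8.22, 8.93 and 8.68 with R5020, a difference of -1.12 (SE 0.12, adjusted p = 0.000206 in limma). The FOXA1 response in PR-A K388R (-0.61) was not called. ALOX5, the 5-lipoxygenase, had an averaged difference of -1.91 that came from WT PR-A (-3.75, with -0.07 in PR-A K388R); in that line it was already below T47D-Y with vehicle, at 6.95 and 7.18 against 8.86 and 8.47. SEMA3C, a secreted guidance factor, was 1.24 lower, again in WT PR-A (-2.35) and not in PR-A K388R (-0.13), where it started from 12.35 and 12.22 with vehicle and fell to 11.05 and 10.98, near the 11.27 and 11.03 of T47D-Y. SOX11 was 0.90 lower than in T47D-Y, with -0.94 and -0.85 in the lines. With vehicle it was 1.19 above T47D-Y in WT PR-A, a called difference, so in that line it was reversed. In PR-A K388R its response of -0.79 was not called. Its other probe sets gave -1.28, called, and -0.34, not called. The averaged call was lost without the first T47D-Y array (-0.74).

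**Figure D3:**
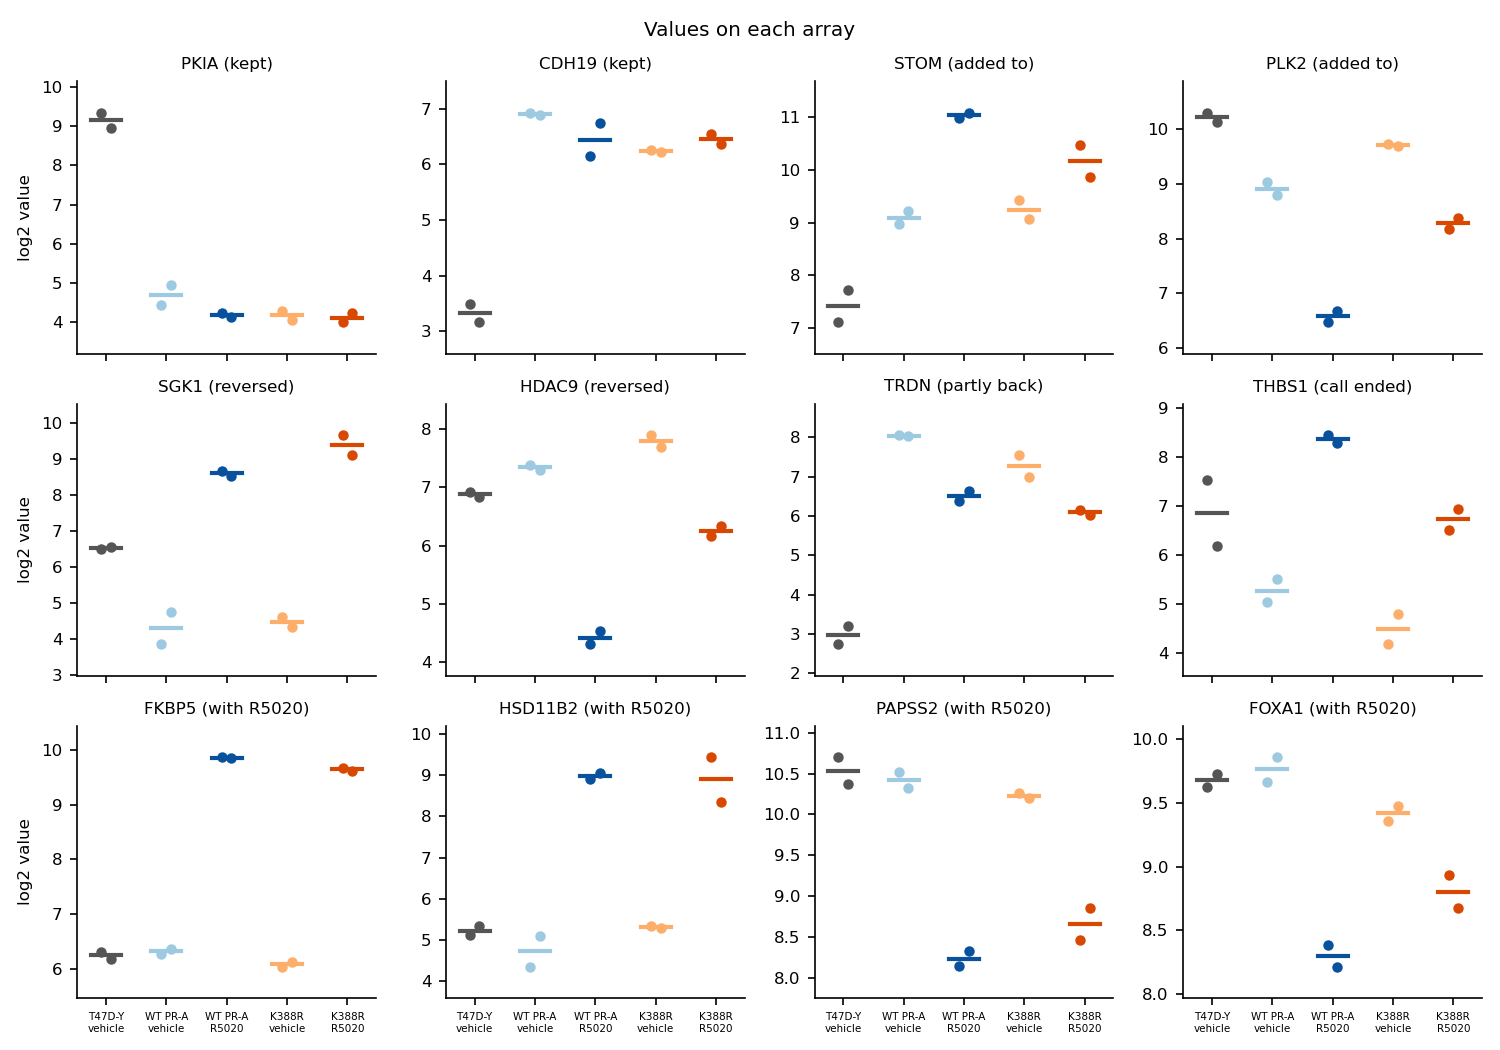
Values of 12 genes on each of the 10 arrays (vertical axes, log2 value, with a separate range for each gene), by group; points are arrays and bars the mean of 2. PKIA is low in every PR-A array, SGK1 lies below T47D-Y with vehicle and above it with R5020, and FKBP5 is high in the 4 R5020 arrays.

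The 3 largest lower differences were kept ones, alike in both lines. PKIA, an inhibitor of protein kinase A, read 9.34 and 8.95 in T47D-Y and at most 4.96 on the 8 arrays of the PR-A lines. With R5020 it was 31.8-fold lower (log2 -4.99, SE 0.17, limma adjusted p = 3.91e-07) and with vehicle -4.70. C6orf141 was 25.5-fold lower (log2 -4.68, with -4.48 with vehicle), and its second probe set gave -4.21. MSLN, the surface protein mesothelin, was 7.77 and 6.79 in T47D-Y and 2.96 to 3.37 in the PR-A lines, at -4.08 with R5020 and -4.07 with vehicle. The values in the PR-A lines lie near the lower quartile, so the size of this difference is uncertain. LIPF, a lipase, PVALB, a calcium binder, and SPARC, a matrix glycoprotein, were lower by -3.06, -2.91 and -2.60 with R5020 and by -3.12, -2.91 and -2.61 with vehicle, and the SPARC values of the PR-A lines, 2.72 to 3.14, lay below the lower quartile. MUCL1, a small mucin of breast tissue, kept apart by line: 8.99 and 9.10 in T47D-Y, 6.68 and 6.76 in R5020-treated WT PR-A and 5.36 and 5.34 in PR-A K388R. DHRS2, a dehydrogenase, was the other way round, at -3.44 in WT PR-A against -1.83 in PR-A K388R.

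Several kept genes were signalling and hormone genes. ESR1, the estrogen receptor, read 9.74 and 10.11 in T47D-Y, 8.34 and 8.52 in WT PR-A and 9.53 and 9.17 in PR-A K388R with vehicle, and 7.73, 7.90, 9.12 and 8.76 with R5020 in the same order. It was 2.92-fold lower with R5020 (log2 -1.55, SE 0.16, limma adjusted p = 0.000197), 1.04 lower on the log2 scale with vehicle, and its response of -0.51 had an adjusted p of 0.0411 in limma but did not reach 1.5-fold. IRS1, the docking protein of insulin and IGF receptors, was -2.37 with R5020 and -1.86 with vehicle; without the second T47D-Y array the R5020 difference was -1.91 and not called. HSD17B1, which makes estradiol, was -2.43 with R5020 and -3.12 with vehicle, and in WT PR-A it went from 7.57 and 7.27 to 9.26 and 8.88 with ligand, part of the way to the 10.92 and 10.53 of T47D-Y. The cAMP phosphodiesterases PDE4B (-2.26 and -1.89) and PDE4D (-1.47 and -1.29) and the aryl hydrocarbon target CYP1A1 (-2.59 and -2.73) were lower with R5020 and with vehicle; the CYP1A1 call was lost without the second T47D-Y array (-2.36).

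On the higher side, MGP, the matrix Gla protein, had the largest difference, 14.3-fold (log2 3.84, SE 0.48, adjusted p = 0.000617 in limma). It read 5.61 and 6.29 in T47D-Y, 9.50 and 10.13 with vehicle and 8.15 and 9.39 with R5020 in WT PR-A, and 12.18 and 10.79, then 11.39 and 10.23, in PR-A K388R. All arrays of the PR-A lines were above T47D-Y, and replicates of 1 group lay far apart. CDH19, a cadherin, was 3.49 and 3.16 in T47D-Y and 6.14 to 6.92 in the PR-A lines, with differences of 3.13 with R5020 and 3.25 with vehicle. PAGE4, a cancer-testis antigen, was 2.98 and 2.72 higher, in both lines alike. DKK1 and EREG were called as kept on the average but belonged to WT PR-A alone, as described below. CDKN1A, the inhibitor of cyclin-dependent kinases, was 1.23 higher with R5020 and 0.81 with vehicle, and VDR, the vitamin D receptor, 1.33 and 0.87.

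On the average, R5020 added to the difference of 13 higher and 19 lower genes. Their median difference went from 0.88 to 2.10 and from -0.91 to -1.90. The response was called in both lines for 6 of the 13 and 4 of the 19, and in PR-A K388R for 7 and 5. The difference with vehicle was called in both lines for 4 and 7. Among the genes below, STOM, SLC7A5, ASNS, CA12, FAM13A and VIM had no called response in PR-A K388R. EGFR (0.22), TRAF5 (0.16), SRGN (-0.52), SLC7A5, ASNS and PLK2 were among those with no called difference with vehicle in that line. STOM, a membrane scaffold protein, read 7.10 and 7.73 in T47D-Y, 8.98 and 9.22 in WT PR-A and 9.42 and 9.07 in PR-A K388R with vehicle, and 10.99, 11.09, 10.48 and 9.87 with R5020. That put it 1.76 above T47D-Y with vehicle and 3.19 with R5020 (SE 0.21, limma adjusted p = 1.83e-05). EGFR, the epidermal growth factor receptor, went from 0.77 to 2.43 above T47D-Y, with R5020 values of 10.35 and 10.25 in WT PR-A and 8.76 and 8.89 in PR-A K388R against 7.03 and 7.24 in T47D-Y. Its brightest probe set is used; of the other 3 probe sets 1 was called, at 1.27, and 2 gave 0.14 and 0.11. EGF, a ligand of that receptor, went from 0.85 to 2.21, which came from WT PR-A (3.95, with 0.48 in PR-A K388R). TRAF5, an adaptor of TNF receptors, went from 0.63 to 2.40, and SRGN, a secreted proteoglycan, from 1.82 to 3.83, both mainly in WT PR-A, where SRGN read 8.61 and 8.81 with vehicle and 11.84 and 11.41 with R5020 against 4.60 and 4.51 in T47D-Y. The other probe set of TRAF5 gave 0.08 and 1 of the other 2 of SRGN 0.04, neither called. The amino acid genes SLC7A5 and ASNS went from 0.61 to 1.61 on the log2 scale and from 1.58-fold to 2.83-fold, and the carbonic anhydrase CA12 from 1.13 to 1.82.

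Downwards, PLK2, a stress-induced kinase, read 10.30 and 10.13 in T47D-Y, 9.03, 8.80, 9.72 and 9.69 with vehicle and 6.47, 6.68, 8.18 and 8.38 with R5020 (WT PR-A first). Its difference went from -0.90 to -2.79 (SE 0.12, limma adjusted p = 1.77e-06), and the groups were in that order in both lines. In PR-A K388R the PLK2 difference with vehicle (-0.51) was not called. FAM13A went from -2.40 to -3.07, TGFB1, a growth-inhibiting cytokine, from -1.57 to -2.17, VIM, an intermediate filament of mesenchymal cells, from -1.40 to -2.20 and TCL1B from -0.82 to -2.23. For TCL1B the difference with vehicle and the response were called in both lines. NREP went from -1.24 to -2.39 on average and did so in neither line: WT PR-A had no called difference with vehicle (0.13) and a called response, and PR-A K388R had a called difference with vehicle (-2.61) and no called response (-0.72). For FAM13A 1 of the other 3 probe sets was called lower, at -2.85, and the rest gave 0.05 and 0.79; the second probe set of VIM and that of TGFB1 (0.14) were not called.

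The averaged difference was reversed for 7 genes. Taken line by line, SGK1 and PRKAB2 were reversed in both lines, ACSL1 and S100P in WT PR-A alone and HDAC9 in PR-A K388R alone. FMO5 and LIFR were reversed in neither line. A line counts here if both its differences from T47D-Y and its response were called. SGK1, a kinase that retains sodium and a known target of steroid hormones, read 6.50 and 6.57 in T47D-Y. With vehicle it read 3.86 and 4.75 in WT PR-A and 4.61 and 4.34 in PR-A K388R, and with R5020 8.68 and 8.54 in WT PR-A and 9.68 and 9.12 in PR-A K388R. The 3 sets of arrays did not overlap: the lines lay 2.15 below T47D-Y without ligand (limma adjusted p = 0.00064) and 2.47 above it with ligand (SE 0.23, limma adjusted p = 0.000122), a response of 4.61. S100P, a calcium-binding protein of tumour cells, read 12.38 and 12.31 in T47D-Y, 10.28 and 10.67 in WT PR-A and 12.33 and 12.11 in PR-A K388R with vehicle, and 13.41, 13.62, 13.57 and 13.26 with R5020. Its low start was thus mainly that of WT PR-A, while the R5020 arrays of both lines were above T47D-Y, by 1.12. PRKAB2, a subunit of the energy sensor AMPK, went from -0.87 to 1.12, FMO5, a monooxygenase, from -0.84 to 0.94 (0.20 and not called in WT PR-A with R5020, and 0.41 and not called at its second probe set), ACSL1, which activates fatty acids, from -0.78 to 0.68, and LIFR, a cytokine receptor named after its values were seen, from -0.76 to 0.89.

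HDAC9, a class II histone deacetylase, was the only gene reversed downwards. It read 6.93 and 6.83 in T47D-Y, 7.39, 7.30, 7.90 and 7.69 with vehicle, and 4.31 and 4.54 in WT PR-A and 6.18 and 6.34 in PR-A K388R with R5020. The difference went from 0.69 to -1.54 (SE 0.12, limma adjusted p = 3.71e-05), with -2.46 and -0.62 in the lines; its other 2 probe sets gave 0.18 and -0.13 and were not called. Leaving out a T47D-Y array took the call from S100P, HDAC9, FMO5 and LIFR (first array) or from PRKAB2, HDAC9 and FMO5 (second array), and without the first WT PR-A vehicle array FMO5 lost it. In these cases the difference with vehicle no longer passed, and for FMO5 without the second T47D-Y array also the one with R5020 (0.85).

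For 42 genes the call ended on the average of both lines, which joins unlike lines. Taken line by line, 16 genes were reversed in WT PR-A, with both differences from T47D-Y and the response called in that line, and 4 in PR-A K388R; of the 16, 4 were reversed on average and 7 were among those whose call ended. THBS1, the matrix protein thrombospondin 1, read 7.53 and 6.19 in T47D-Y, 5.05, 5.50, 4.18 and 4.81 with vehicle, and 8.44, 8.28, 6.51 and 6.94 with R5020. It was 1.98 below T47D-Y with vehicle and 0.68 above with R5020 (limma adjusted p = 0.236), and without the first T47D-Y array, the higher one, the latter was 1.52 and called. In WT PR-A it was reversed, from a called -1.59 to a called difference above T47D-Y (limma adjusted p = 0.0235), while in PR-A K388R it went from -2.37 to -0.14. DPYSL2, a cytoskeletal protein of neurons, and PLLP, a membrane protein of myelin, went from -1.46 to 0.36 and from -1.38 to 0.38. Both were reversed in WT PR-A, DPYSL2 from -1.98 to 0.65 and PLLP from -1.91 to 0.71, and in PR-A K388R they ended 0.06 and 0.05 above T47D-Y, not called. RASSF2, a Ras effector, was likewise reversed in WT PR-A, from -1.40 to 1.96, and not called in PR-A K388R with either treatment (in WT PR-A 7.06 and 7.99 with R5020, 4.45 and 3.89 with vehicle, 5.79 and 5.35 in T47D-Y). Downwards, NCAM2, a neural adhesion molecule, fell from 1.11 above T47D-Y to -0.30 and MYRFL from 0.86 to -0.29. FRY and HNMT, the enzyme that inactivates histamine, were high with vehicle in WT PR-A and not in PR-A K388R. With R5020 FRY fell in WT PR-A from 6.44 and 5.70 to 3.50 and 3.70, with 3.29 and 3.48 in T47D-Y. HNMT also fell there but stayed 1.46 above T47D-Y, a called difference, at 4.93 and 5.93 against 4.03 and 3.90.

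Some genes came part of the way on the average of both lines. The response was called in WT PR-A for 9 of 9 higher and 3 of 3 lower genes. In PR-A K388R it was called for 3 of the 9 and 0 of the 3. TRDN, a calcium release protein of muscle, read 2.73 and 3.19 in T47D-Y, below the lower quartile, 8.06, 8.02, 7.56 and 6.99 with vehicle and 6.38, 6.65, 6.16 and 6.03 with R5020, so the difference went from 4.69 to 3.34. TFAP2B, a transcription factor of luminal cells, went from 2.48 to 1.36, and GEM, a small GTPase, from 1.88 to 0.80. Their calls with R5020 were lost without the first T47D-Y array for TFAP2B (1.06) and without the second for GEM (0.73). From below, GULP1, an engulfment adaptor, went from -2.05 to -1.37 and ABCA1, a cholesterol exporter, from -1.57 to -0.85. SLC27A2, a fatty acid transporter, went from -1.58 to -0.92. The ABCA1 call with R5020 was lost without the second T47D-Y array (-0.62). In PR-A K388R no response was called for TFAP2B (2.82 to 2.31), GEM (0.71 to 0.31) or GULP1 (-2.11 to -1.95). Nor was it for SLC27A2 (-1.34 to -1.01) or ABCA1 (-0.68 to -0.89). In WT PR-A ABCA1 went from -2.45 to -0.81 and TFAP2B from 2.15 to 0.40, the latter not called with R5020.

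The averaged comparison covers lines that were often unlike. Against T47D-Y, R5020-treated WT PR-A cells were higher at 890 probe sets (7.09%) and lower at 727 (5.79%), and PR-A K388R cells higher at 348 (2.77%) and lower at 503 (4.01%). Of the 514 probe sets higher on average, 186 were called in both lines, 276 in WT PR-A alone and 52 in PR-A K388R alone. Of the 534 lower on average, 274 were called in both, 170 in WT PR-A alone, 85 in PR-A K388R alone and 5 in neither. A call in 1 line is no test of a difference, and the lines were compared directly, R5020 arrays against R5020 arrays, in which the T47D-Y arrays play no part. PR-A K388R was higher than WT PR-A at 489 probe sets (3.9%) and lower at 813 (6.48%). Among the 514 higher probe sets this difference was called at 310, of which 270 were lower in PR-A K388R; among the 534 lower ones it was called at 180, of which 133 were less low in PR-A K388R.

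**Figure D4:**
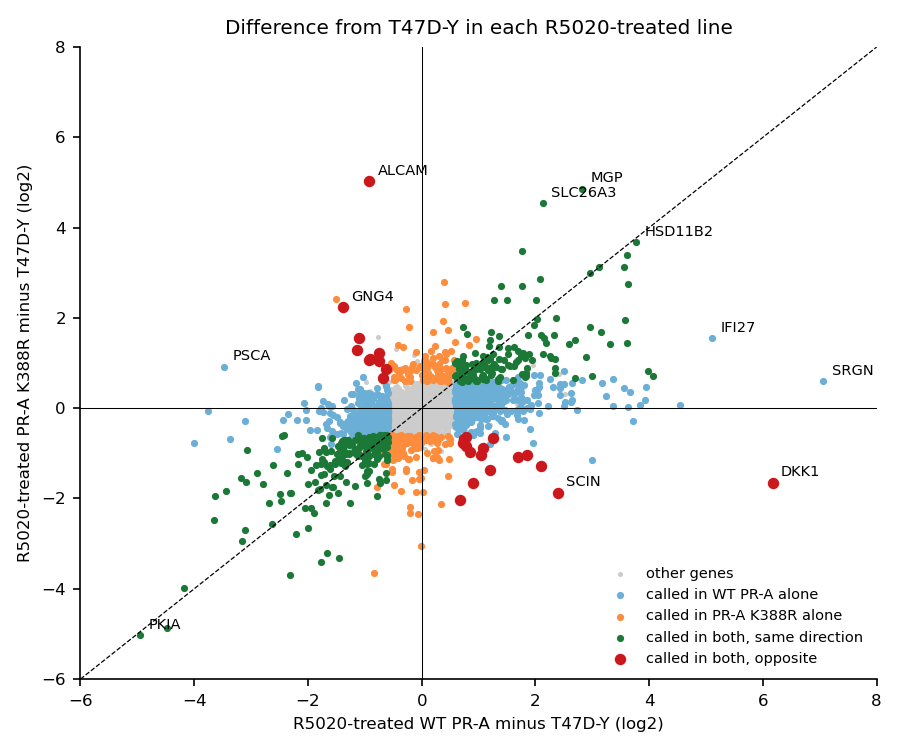
Log2 difference from T47D-Y of each of 8904 genes in R5020-treated WT PR-A cells (horizontal axis) and in R5020-treated PR-A K388R cells (vertical axis), coloured by the calls in each line. HSD11B2, MGP and PKIA were called in both lines the same way, and 27 genes, among them DKK1 and ALCAM, in opposite ways.

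The lines went opposite ways from T47D-Y at 27 genes. DKK1, a secreted inhibitor of Wnt signals, read 5.62 and 5.38 in T47D-Y, 11.72 and 11.63 in R5020-treated WT PR-A and 3.55 and 4.15 in PR-A K388R. It was at 11.79 and 11.63 and at 3.85 and 3.74 with vehicle, so the lines stood 7.82 apart with ligand (limma adjusted p = 4.99e-08) and R5020 made no called change. ALCAM, a cell adhesion molecule, was the mirror case, with 6.11 and 6.45 in T47D-Y, 5.60 and 5.12 in WT PR-A and 11.27 and 11.34 in PR-A K388R, a line difference of 5.95. SCIN, which severs actin, was 2.39 above T47D-Y in WT PR-A and 1.87 below it in PR-A K388R, and GNG4, a G protein subunit, 1.39 below and 2.23 above; for GNG4 the average was 0.42 and not called. GJA1, a gap junction protein, was 1.69 above T47D-Y in WT PR-A and 1.08 below it in PR-A K388R, while CFB, of the complement system, and S100A8, a calcium binder, were 0.91 and 0.93 below it in WT PR-A and 1.10 and 1.06 above it in PR-A K388R; these 3 were named after their values were seen. Other genes stood apart in 1 line. EREG, a ligand of EGFR (3.83 and 0.06), ABCA13 (4.54 and 0.06) and SRGN (7.07 and 0.59) were high in WT PR-A, and PSCA, a surface antigen, was 3.47 lower there, with a difference of 0.92 in PR-A K388R that was not called.

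The genes called in both lines in the same direction numbered 140 higher and 207 lower. Ordered by the smaller of the line differences, the higher ones were led by HSD11B2 (3.77 in WT PR-A against 3.68 in PR-A K388R), FKBP5 (3.62 and 3.40), TRDN (3.55 and 3.13) and CDH19 (3.12 and 3.13), and the lower ones by PKIA (-4.96 and -5.03), C6orf141 (-4.48 and -4.87), MSLN (-4.17 and -3.98) and LIPF (-3.16 and -2.95). Genes set apart by ligand and genes set apart without it thus headed the higher list together, while the first 6 lower genes were all kept ones.

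Of the known progestin targets, 14 of the 19 measured were higher with R5020 than in T47D-Y and 0 were lower. The shares over all genes were 4.17% and 4.59%, and the median was 1.14 (log2) against 0.05 over all genes. With vehicle 1 target was higher (EDN1, an endothelin) and 4 were lower (SGK1, S100P, LIFR and BCL6, a transcriptional repressor). Over all genes 1.94% were higher and 2.65% lower with vehicle. The median of the targets with vehicle was -0.01, and their response was called higher for 13, against 2.67% over all genes. By class, on the average of both lines, 9 targets differed with R5020 alone and 3 were reversed (SGK1, S100P and LIFR). The 9 include GREB1 (2.39 higher; 4.06 in WT PR-A against 0.72 in PR-A K388R), STAT5A, a factor of prolactin signals (1.14 higher; 1.15 and 1.13), and DUSP1, a MAP kinase phosphatase (1.41 higher; 2.65 and 0.18). In WT PR-A GREB1 was already 1.27 above T47D-Y with vehicle, a called difference. The list of targets was drawn up with results of these data known, and SGK1 and PDK4 are named by the study from these samples. There both are described as unaffected by SUMOylation. Here, with R5020, PDK4 was lower in PR-A K388R than in WT PR-A (-2.17, called), and the line difference of SGK1 (0.79) was not called. The measured genes that the study names gave 6 of 7 higher, against 4.17% over all genes. The study picked them from these samples, so that count was largely fixed in advance. It gives ANXA1 and ALDH1A3 for WT PR-A and NDRG1 and DIO2 for the mutant, while the count is of averages over both lines. ANXA1 was 1.83 higher, which came from WT PR-A (3.62, with 0.04 in PR-A K388R). DIO2 (0.28, limma adjusted p = 0.266) did not pass.

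Of 20 measured estrogen-regulated genes, 8 were lower than in T47D-Y and 3 higher with R5020; for this and the lists that follow, the share over all genes was 4.17% higher and 4.59% lower with R5020, and 1.94% and 2.65% with vehicle. The lower ones were mainly kept differences, such as NPY1R (-1.89 with R5020, -1.80 with vehicle), PRSS23 (-1.48 and -1.85), TFF1 (-1.34 and -1.01) and PDZK1 (-1.26 and -1.72). The higher ones were GREB1, CA12 and SERPINA1 (1.41), the first of which also counts as a progestin target. Of 14 luminal lineage genes 4 were lower (ESR1, FOXA1, ELF3 and KRT19) and 1 higher (TFAP2B). A called response was seen for 4, all downwards, against 1.76% of all genes with a response called lower. For FOXA1, ELF3 and TFAP2B the response was not called in PR-A K388R. ELF3 was lower in WT PR-A (-1.74) with -0.08 in PR-A K388R, and its call was lost without the second T47D-Y array (-0.81).

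Of 12 measured genes of cholesterol synthesis, 4 were lower with R5020 and 5 with vehicle, against 4.59% and 2.65% over all genes, and 0 had a called response. HMGCS1, which condenses the first sterol precursors, read 8.76 and 8.71 in T47D-Y, 7.28 to 7.55 with vehicle and 6.98 to 7.26 with R5020 (log2 difference -1.65, SE 0.11, limma adjusted p = 1.83e-05). SQLE, the squalene epoxidase, was 1.58 lower, MVD 0.78 lower and LSS, the lanosterol synthase, 0.60 lower with R5020, with -1.39, -0.86 and -0.72 with vehicle. The LSS call was lost without the first T47D-Y array (-0.55) and without the second R5020 array of WT PR-A (-0.58). FDPS passed with vehicle alone (-0.67), and the list median was -0.37 with R5020 and -0.51 with vehicle.

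Of 23 measured genes of hypoxia and glycolysis, 7 were higher than T47D-Y with R5020 and 2 lower, while with vehicle 0 were higher and 2 lower, and the response was called higher for 7 (2.67% over all genes). PFKFB3, which drives glycolysis, read 6.99 and 6.75 in T47D-Y, 10.11 and 9.42 in WT PR-A and 7.62 and 8.40 in PR-A K388R with R5020, 2.02 higher. Its response in PR-A K388R (1.14) was not called. DDIT4, an inhibitor of mTOR, was 1.74 higher and alike in the lines (1.87 and 1.61), with a response in PR-A K388R (1.19) that was not called. P4HA2 was 1.42 higher, BNIP3 1.26 higher and SLC2A1, the main glucose transporter, 1.03 higher. ADM, the peptide adrenomedullin, went against them at -2.24, a kept difference that was called in PR-A K388R (-3.65) and not in WT PR-A (-0.83): it read 9.78 and 9.60 in T47D-Y and 5.60 and 6.49 in R5020-treated PR-A K388R, with all WT PR-A arrays in between. Of 17 genes of the unfolded protein response and ATF4, 8 were higher, led by SLC7A5, ASNS and SLC3A2 (1.11), and SEL1L was 1.06 lower; 9 of the 17 were lower in PR-A K388R than in WT PR-A with R5020, against 571 of 8904 genes (6.41%). Both measured metallothioneins that passed, MT1X (1.48) and MT1H (1.36), were high in WT PR-A (2.62 and 2.42) and not in PR-A K388R (0.35 and 0.30).

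**Figure D5:**
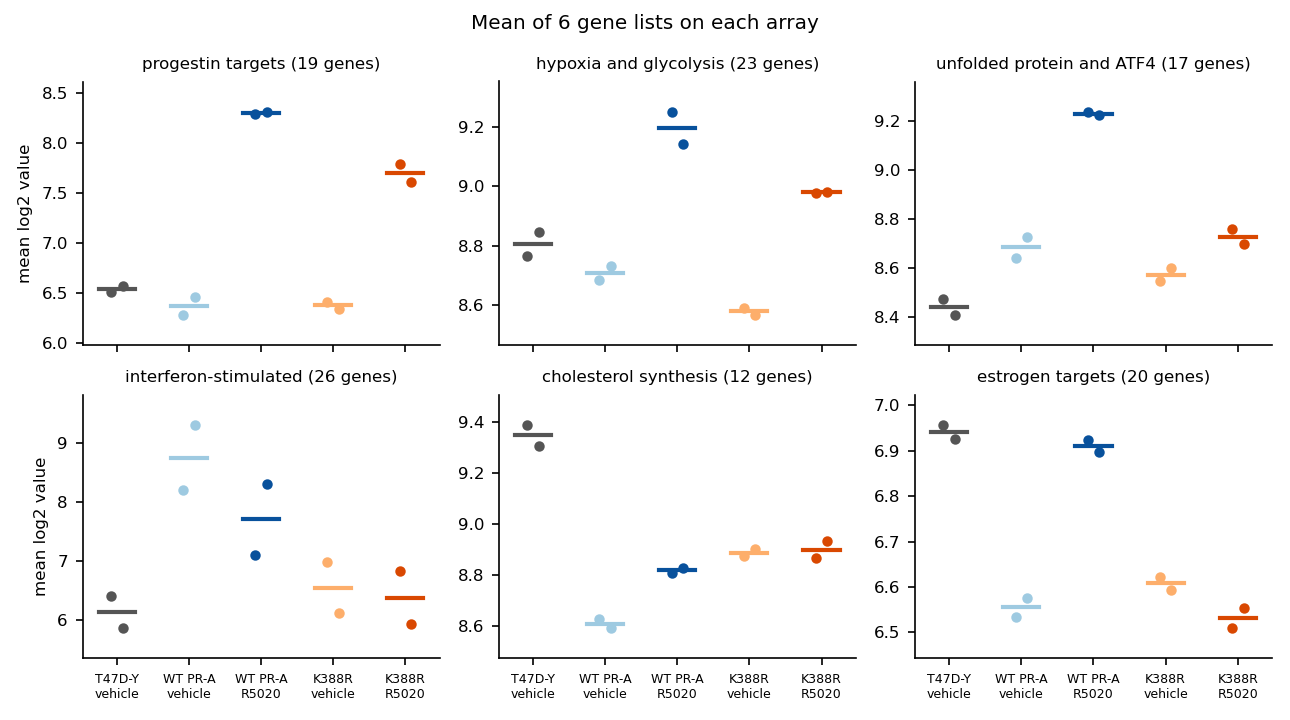
Mean log2 value of 6 gene lists on each of the 10 arrays (vertical axes, with a separate range for each list), by group; points are arrays and bars the mean of 2. The progestin target mean was 8.29 and 8.31 in R5020-treated WT PR-A and 6.51 and 6.57 in T47D-Y, and the interferon list shows replicates far apart in the same group.

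Of 24 genes of growth factor pathways 7 were higher and 5 lower, against 4.17% and 4.59% over all genes. Besides EGFR, EGF and EREG, the ligands TGFA (0.83) and HBEGF (0.85) were higher, and FGFR2, a fibroblast growth factor receptor, was 1.31 lower with R5020 (-0.18 with vehicle), alike in both lines (-1.42 and -1.19). Of 30 integrins and adhesion genes 2 were higher (ALCAM and ICAM1), a share near that over all genes, and 8 lower, MSLN the most. Of 18 immediate-early genes 5 were higher and 0 lower, MYC among them by 0.93, a call that was lost without the second T47D-Y array (0.60). Of 19 death receptor and BCL2 family genes 3 were higher, PMAIP1 by 1.86, FAS by 1.14 and TNFRSF10A by 0.76, and BIK was 1.25 lower; the FAS and TNFRSF10A calls were lost without the second T47D-Y array (0.73 and 0.58). Of 22 enzymes of steroid and eicosanoid metabolism 2 were higher, HSD11B2 and SRD5A1 (1.06), and 6 lower.

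None of 27 ribosomal protein genes, 24 genes of oxidative phosphorylation and 8 of the SUMO pathway was called with R5020, with list medians of -0.02, 0.10 and -0.15. Of 32 DNA replication genes 1 was called higher, RRM2 (0.64), and of 29 mitosis genes 1, BIRC5 (0.74); both calls were lost without the second T47D-Y array (0.47 and 0.70), and that of RRM2 also without the second R5020 array of WT PR-A (0.57). A called line difference with R5020 was found for 9 of the replication and 7 of the mitosis genes, all higher in PR-A K388R, against 391 of 8904 genes (4.39%).

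The mean of the interferon-stimulated genes differed more between replicates of 1 group than that of any other list examined. Of 26 measured, 7 were higher with vehicle and 2 with R5020 (IFI27 and ISG20), and MX2 was 0.69 lower. These are averages of both lines. In R5020-treated WT PR-A 9 were called higher than T47D-Y and 1 lower, against 634 and 564 of all 8904 genes. In R5020-treated PR-A K388R 0 were called either way, against 263 higher and 367 lower. The ISG20 call was lost without the second T47D-Y array (0.52) or the first R5020 array of either PR-A line (0.79 and 0.75), and the MX2 call without either T47D-Y array (-0.67 and -0.72). IFI27 read 4.72 and 4.56 in T47D-Y, 8.73 and 10.76 in R5020-treated WT PR-A and 6.87 and 5.54 in PR-A K388R, a difference of 3.33 (SE 0.66, limma adjusted p = 0.00786) that lost its call without either T47D-Y array (3.43 and 3.23). IFIT1 read 5.99 and 4.93 in T47D-Y and 7.68 and 10.68 in R5020-treated WT PR-A, against 10.50 and 11.87 there with vehicle; its difference of 1.72 with R5020 did not pass (limma adjusted p = 0.234). The list mean was 7.10 and 8.30 on the R5020 arrays of WT PR-A, 6.82 and 5.93 on those of PR-A K388R and 6.40 and 5.86 in T47D-Y, so the PR-A K388R and T47D-Y arrays overlapped and those of WT PR-A did not.

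A short motif known from promoters of such genes is shown here because many of them carry it. The interferon response core GAAANNGAA was searched on both strands from 250 bases before to 50 after the gene start, in the RefSeq promoters of GRCh38.p14, and was found in 15 of 22 interferon-stimulated genes with a promoter (68.2%) against 500 of 6907 measured genes (7.24%). The stretches below run 5′ to 3′ in the direction of the gene, all on the plus strand, with the match in capitals.
IFI27, chr14:94110619-94110647: tgtctgcagtTTCGGTTTCctggaaaatg
IFI27, chr14:94110631-94110659: cggtttcctgGAAAATGAAacctatctca
ISG20, chr15:88638937-88638965: taacaaactaGAAACTGAAacagggtcgg
IFIT1, chr10:89392498-89392526: tagctttagtTTCACTTTCccctttcggt
The first and last match lie on the minus strand of the gene, and the matches start 107, 95, 69 and 115 bases before the gene start; the pair in IFI27 lies next to each other. The progesterone response element core ACANNNTGT was found in 4 of 126 promoters of genes higher with R5020 and not with vehicle (3.17%), against 282 of 6907 (4.08%), and in 0 of 15 progestin targets. The sterol response core TCACNCCAC was found in 1 of 11 cholesterol synthesis genes (9.09%), the regulator SREBF2, against 66 of 6907 (0.956%). A match is a description and not a site, and a window without one says nothing of sites farther off.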

How the data were processed

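The deposited log2 expression values of 10 Affymetrix U133 Plus 2 arrays were used as the authors normalized them. The methods and the submitters' notes name Partek. In the methods it is Partek Genomics Suite, followed by ANOVA with the same thresholds as here. Settings of the normalization are not given in the sources used here. The table held 16376 probe sets, a part of the array, of which 12547 had 1 gene symbol, 457 several and 3372 none in the annotation table. Labels and methods differ on culture medium and RNA kit.

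limma 3.58.1 in R 4.3.3 fitted 1 mean for each of 5 groups of 2 arrays, with the replicate number as a block because the deposited values had that number removed (in every probe set the replicate differences summed to at most 0.0003 over the groups), which leaves 4 residual degrees of freedom and voids a check of pairing. P-values were corrected over the 16376 probe sets together (Benjamini-Hochberg). A call needed a corrected p under 0.05 and a change of 1.5-fold or more. The steps were tested on simulated data. A gene was represented by its probe set with the highest mean. Values under an array's lower quartile were treated as dim; the number of arrays limits the precision. Alternatives were the block, normalization, moderation, thresholds, a filter on dim probe sets, the probe set chosen and each array left out.

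Named genes were the 10 largest changes each way, the 4 leading genes each way of each class, up to 4 called members of each list, genes the study names, and the 5 largest line differences each way. Members and lists were chosen with earlier results of these data known. Promoters came from RefSeq (GRCh38.p14).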

Additional observations from a re-analysis of the deposited data

Results flagged for a closer look

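The R5020-treated lines were compared with each other by limma's test of that difference, by the thresholds used throughout. The following named genes, some not described above, differed between the lines. The list is not complete and leaves out genes of the text such as RASSF2 (-2.73), HNMT (-1.81), THBS1 (-1.63), PLLP (-0.66) and DPYSL2 (-0.59). Values are PR-A K388R minus WT PR-A on the log2 scale.

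Higher in PR-A K388R were ALCAM by 5.95, PSCA by 4.39, ALOX5 by 3.68, CEACAM6 by 2.83, SLC26A3 by 2.42, SEMA3C by 2.22, MGP by 2.04, TFAP2B by 1.91, HDAC9 by 1.83, DGAT1 by 1.77, PLK2 by 1.70, ELF3 by 1.66. Smaller differences in the same direction were DHRS2 1.61, NDRG1 1.57, FMO5 1.48, TGFB1 1.47, ENG 1.29, FAM13A 1.19, ESR1 1.13, TCL1B 1.10, CDH3 1.08, GJB5 1.01, HDAC5 0.95, ARHGDIB 0.89, PSMB10 0.68.

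Lower in PR-A K388R were DKK1 -7.82, SRGN -6.47, ABCA13 -4.47, EREG -3.77, FCGR3B -3.75, ANXA1 -3.59, IFI27 -3.54, EGF -3.47, GREB1 -3.34, TRAF5 -3.16, ADM -2.81, PMAIP1 -2.61, DUSP1 -2.47, MT1X -2.27, PDK4 -2.17, MT1H -2.13. Differences of intermediate size were L1CAM -2.11, CEBPD -2.02, COL1A1 -1.99, NREP -1.87, TIMP1 -1.76, PFKFB3 -1.75, ISG20 -1.73, FZD1 -1.69, CPM -1.62, HSD17B1 -1.55, EGFR -1.47, SLC7A5 -1.45, MUCL1 -1.37, GULP1 -1.17, FAS -1.16, TNFRSF10A -1.13. The smallest of those listed were ALDH1A3 -1.09, SLC3A2 -0.98, GEM -0.98, ESRRA -0.92, ASNS -0.88 and STOM -0.86. After them came E2F3 -0.80, HDAC4 -0.79, CA12 -0.75, MYC -0.69, VDR -0.64 and PRKAR2B -0.61.

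Outside the named probe sets, 185 of the 3829 with several symbols or none listed were called for the R5020-treated PR-A lines against T47D-Y, 41 higher and 144 lower (4.83%); their genes were not named here.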

How the results depend on the processing

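The calls at probe sets were 514 higher and 534 lower for the R5020-treated lines, 539 with vehicle, 540 for the response and 1302 for the line difference, with 186 higher and 274 lower in both lines, 311 kept, 45 added to, 85 moved back, 7 reversed and 304 with R5020 alone. At a fold of at least 2 these were 201, 193, 193, 182, 509, 73, 100, 119, 6, 23, 2 and 107. Without moderation they were 275, 244, 67, 190, 588, 44, 73, 52, 2, 6, 0 and 133. At an adjusted p under 0.01, both lower gave 173, added to 27 and moved back 56. Leaving out 1 array gave ranges, in the same order, of 424 to 545, 421 to 596, 292 to 558, 516 to 601, 970 to 1315, 118 to 186, 171 to 284, 185 to 324, 24 to 49, 45 to 101, 4 to 9 and 266 to 344. Without T47D-Y replicate 1 the counts were 293 with vehicle, 171 lower in both lines, 185 kept, 24 added to and 51 moved back; without T47D-Y replicate 2, 292, 194 kept, 26 added to, 45 moved back and 4 reversed; without R5020-treated PR-A K388R replicate 1, 118 higher in both lines. The cause was not tested.

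Without the replicate block the calls were 521 higher, 543 lower, 567 with vehicle and 545 for the response, and 8 reversed; it moved no count by over 1.5 times and ended the call of 0 of 126 named genes. Of those 126, 36 lost their call without moderation, 27 at a fold of 2, 10 without T47D-Y replicate 1 and 21 without T47D-Y replicate 2, and none changed sign. The 7 reversed genes had differences of opposite sign with and without R5020 under each alternative in which they were fitted; LIFR was left out with the dimmest 40%. With array medians centred, 42.7% of calls were higher, against 49.0%.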
